A study of Mus musculus with 4 samples.

Results

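The genes described here are those for the nuclear-encoded subunits of the respiratory chain and of the ATP synthase. They were followed over 4 arrays of mouse left ventricle. A gene was taken when a probe set of its own carried a symbol beginning with Nduf, with Sdh and a letter from a to d, with Uqcr, with Cox4 to Cox8, or with Cyc1, Cycs or Atp5. This gave 89 of the 12393 genes on the array. They comprised 6 core and 27 accessory subunits of complex I, 4 subunits of complex II, 9 subunits of complex III with somatic cytochrome c, 17 genes of complex IV, 5 of the F1 part of the ATP synthase and 12 of its Fo part and stalk. The remaining 8 were assembly factors that share the Nduf or Sdh prefix. Ndufa4 was placed in complex IV, with which its protein is now known to associate. The subunits that mitochondrial DNA encodes carry other symbols and were not analysed here.

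The study asked what the cytokine IL-18 does to gene expression in cardiac hypertrophy caused by pressure overload. Each of the 4 groups was 1 array of pooled left ventricular or cardiac muscle RNA. Wild-type and IL-18 null mice were each either sham-operated or banded, where banding is transaortic constriction, a surgical narrowing of the aorta. The labels give 5 mice for the IL-18 null sham pool and, for the IL-18 null banded pool, 6 mice, 1 week of constriction and a C57BL/6 background. For the wild-type pools the design text gives 5 to 6 mice per group, and their strain and banding time are not given in the sources used here. Age and sex are not given for any pool. Each difference below sets 1 array against another, so none has a replicate check, an error or a p-value.

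Complex I takes electrons from NADH and complex II takes them from succinate, and both pass them to coenzyme Q. Complex III hands them to cytochrome c and complex IV to oxygen. The protons pumped on the way drive the ATP synthase, in which a membrane rotor (Fo) turns the catalytic head (F1). Heart muscle depends on this pathway for most of its ATP, and its nuclear genes are known targets of the factors NRF-1, GABP, ERR and YY1 and of the PGC-1 coactivators.

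Values are deposited GCRMA intensities on a linear scale, given below in a fixed order: sham then banded for the wild type, followed by sham then banded for the IL-18 null. Differences are on the log2 scale after values under 64 were set to 64, so 1 is a 2-fold difference, and a difference that meets the floor on the lower side is a bound written "at least". Of the 89 genes, 84 were at or above 64 on at least 1 array and 82 on all 4. Sdhc and Ndufaf3 were below it on the wild-type sham array alone. The 5 below it on every array were Cox7c (24.4, 11.9, 18.7 and 18.8), Ndufb1 (48.2 to 51.0), Cox4i2 (5.4 to 6.2), Cox6b2 (4.8 to 5.7) and Cox8c (2.9 to 3.0). Cox4i2 is known from lung, and Cox6b2 and Cox8c are known from testis. Cox7c and Ndufb1 are widely expressed subunits, so a low value here gives no level for them.

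The wild-type sham array stood apart from the other 3. Over the 84 measured genes its log2 values correlated at 0.806 to 0.891 with those of the other arrays, which correlated at 0.975 to 0.988 with each other. The 3 control transcripts compared were Gapdh and Actb of the mouse and dap, a bacterial control. The 3′ signal of each was lowest on the wild-type sham array (dap 188.1, 1818, 1646.6 and 1669.2). The log2 signal at the 3′ end exceeded that in the middle by 4.74 ± 0.14 on the wild-type sham array (mean and SD over the 3 transcripts). This excess was 0.72 ± 1.14 on the wild-type banded, 3.37 ± 1.14 on the IL-18 null sham and 3.01 ± 1.47 on the IL-18 null banded. The arrays compared thus differed in this measure by -4.02 in wild-type banding, -1.37 between the sham arrays, 2.29 between the banded arrays and -0.36 in IL-18 null banding. The part of this measure and of the lower 3′ control signals in the results was not tested. Il18, the targeted gene, lay between 7.4 and 9.1 on all 4 arrays, below the floor in the wild type too, so it does not check the genotype labels. The tissue showed its defining markers: all 10 cardiomyocyte genes were measured, with summed intensities of 182621, 242975, 225014 and 219515. Of these 10, 2 passed 2-fold upward in wild-type banding and 0 in IL-18 null banding, with median differences of 0.32 and -0.05. Fibroblast markers were at least 2-fold higher in 4 of 6 genes in each banding comparison (summed 6997, 20756, 11162 and 26387), and the macrophage markers in 3 and 4 of 5 (summed 2000.1, 2946, 1655 and 4777). The part of cell composition in the results was not tested, and in bulk tissue fewer cells of a type and less RNA per cell cannot be told apart.

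In the wild type, 20 of the 84 measured genes were at least 2-fold higher in the banded than in the sham array and 0 were at least 2-fold lower. Over all 5040 genes compared, 21.7% were at least 2-fold higher and 12.8% at least 2-fold lower. The members' share of higher genes, 23.8%, was thus near the background, and their share of lower genes was below it. Most of these genes are bright, so a second background was taken from the 229 genes whose mean log2 value was at or above the members' lower quartile (12.28). There, 14.4% were at least 2-fold higher and 0.873% at least 2-fold lower. Of these 229 genes 67 are members themselves, and the shares over the other 162 were 13% and 1.23%. The members' median difference was 0.16, against -0.08 over all genes and -0.02 over the bright ones. The members were nearly balanced around 0, with 45 higher and 39 lower in the banded array.

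In the IL-18 null, 0 of the 84 genes were at least 2-fold higher with banding and 1 was at least 2-fold lower. The background over 4827 genes was 6.98% higher and 2.53% lower, and over the bright genes 1.31% and 0% (1.85% and 0% without the members). The median difference was -0.06, against 0.08 over all genes. Of the 84 members, 81 (96.4%) differed by less than 0.5 on the log2 scale, compared with 70.2% of all genes, 92.1% of the bright genes and 88.9% of the bright genes that are no members. The 3 outside that band were Atp5g2, Uqcrc1 and Cox6a1.

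Between the sham arrays, 15 members were at least 2-fold higher in the IL-18 null than in the wild type and 0 were lower. Over 4851 genes the shares were 16.3% and 6.29%, and over the bright genes 10% and 0% (9.26% and 0% without the members). Between the banded arrays, 0 members were at least 2-fold higher in the IL-18 null and 3 were at least 2-fold lower (3.57%), where 4947 genes gave 5.7% and 7.74% and the bright genes 0.873% and 0% (1.23% and 0% without the members). The median differences were 0.13 between the sham arrays and -0.04 between the banded arrays. Wild-type banding and the sham genotype comparison share the wild-type sham array, so a low value there enters both, and their values stand side by side below without being counted as separate results.

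**Figure D1:**
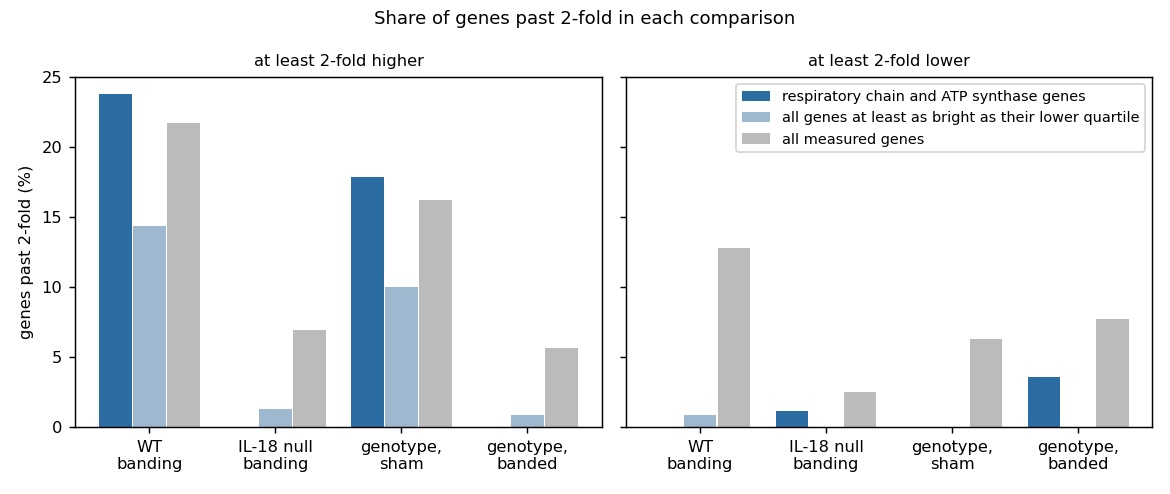
Share of genes at least 2-fold higher (left) or lower (right) in each comparison, in percent of the genes compared, for the respiratory chain and ATP synthase genes (dark blue), for all genes at least as bright as the members' lower quartile (light blue) and for all measured genes (grey). The dark bars reach 23.8% and 17.9% in the comparisons with the wild-type sham array and 0% for higher genes in the other comparisons.

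By complex, the medians in wild-type banding were 0.67 for the complex I core, 0.03 for its accessory subunits, 1.17 for complex II, 0.46 for complex III with cytochrome c, -0.01 for complex IV, 0.09 for F1, 0.00 for Fo and the stalk, and 0.37 for the assembly factors. Genes at least 2-fold higher were found in every group: 2, 4, 2, 2, 4, 1, 3 and 2 in that order. The genes measured numbered 6, 26, 4, 10, 13, 5, 12 and 8. Over all genes compared, 21.7% were at least 2-fold higher, so having such genes is not particular to these complexes. The 8 medians lay between -0.13 and 0.03 in IL-18 null banding. On the brightest probe set of each gene, large values thus occurred in some genes of each group and not across whole complexes, as the plot of differences by complex shows. Which genes these are depends on the probe set. Another probe set of Ndufv1, Ndufs7, Atp5a1 and Atp5d passed 2-fold upward in wild-type banding, while other probe sets of Ndufv2 and Atp5o stayed within 2-fold.

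**Figure D2:**
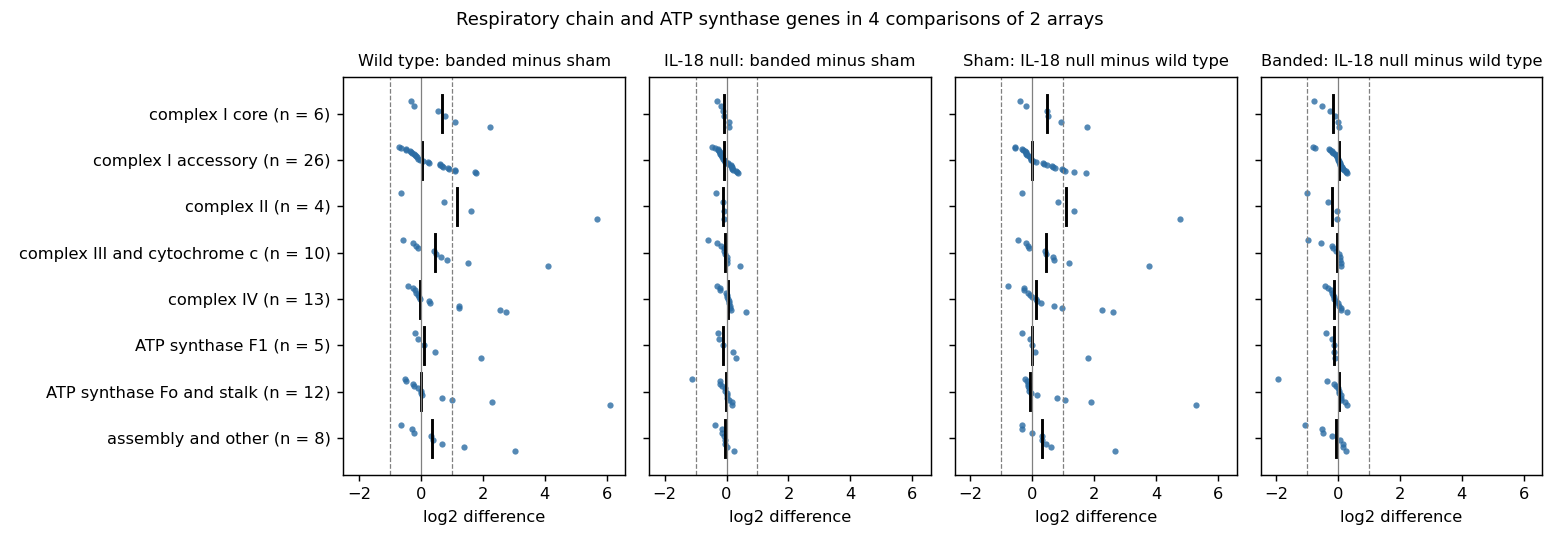
Log2 difference of each measured member (points) in 4 comparisons of 2 arrays, by complex, with the group's median as a black bar and dashed lines at 2-fold. In the panels that use the wild-type sham array 1 to 4 members of each group lie beyond 2-fold on the right, up to 6.09, while in IL-18 null banding all but Atp5g2 lie within the dashed lines.

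The core of complex I holds the flavin and the iron-sulfur clusters that carry electrons from NADH to coenzyme Q. Ndufs8, an iron-sulfur subunit next to the coenzyme Q site, had intensities of 4531, 21465, 15490.3 and 12424. The wild-type sham value was the lowest and the wild-type banded value the highest, giving differences of 2.24 in wild-type banding, -0.32 in IL-18 null banding, 1.77 between the sham arrays and -0.79 between the banded arrays. Ndufv2, another iron-sulfur subunit, had 8175, 17531, 15612 and 14732 (1.10 in wild-type banding, -0.08 in the null). On their brightest probe sets the other core genes stayed within 2-fold in all 4 comparisons. They ran from Ndufs1, at 9306, 7548, 8167 and 7610 (-0.30 in wild-type banding), to Ndufv1, which binds NADH, at 4692, 8102, 6481 and 5703 (0.79). Another probe set of Ndufv1 gave 3.40 in wild-type banding and another of Ndufs7 gave 1.95. The other probe sets of Ndufv2 gave -0.06 and 0.03.

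Accessory subunits surround the core and are needed for its assembly and stability. Of the 26 measured, 4 passed 2-fold upward with banding in the wild type. Ndufa10 had 2918, 9980, 7486 and 5758 (1.77) and Ndufs4, whose loss causes complex I deficiency in mice and people, had 1033, 3500, 3422 and 3806 (1.76). Both were lowest on the wild-type sham array and differed by -0.38 and 0.15 in IL-18 null banding. Another probe set of Ndufs4 gave -0.79 in wild-type banding. Ndufa7 (2845, 6157, 5949 and 6128) and Ndufa8 (3013, 6539, 5885 and 5328) differed by 1.11 and 1.12 in the wild type, and by 0.04 and -0.14 in the null. On the lower side, Ndufc2 had 14937, 9189, 10170.2 and 9423 (-0.70 in wild-type banding) and Ndufa6 had 7503, 4874, 5096 and 5787 (-0.62). On these probe sets the wild-type sham array gave the highest value instead. Another probe set of Ndufc2 had 172, 2776, 2852 and 2055 (4.02 in wild-type banding). It was lowest on the wild-type sham array, so the direction of Ndufc2 is not settled. With banding of the IL-18 null, the accessory subunits ran from -0.47 for Ndufa3 (10173, 19045, 15647 and 11324) to 0.38 for Ndufb7 (4633, 7131, 6046 and 7883).

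Complex II is succinate dehydrogenase, also an enzyme of the citric acid cycle. Its 4 subunits differed from each other most plainly in the wild-type sham array. Sdhc, a membrane anchor that holds haem and the coenzyme Q site, had 54.6, 3323, 1762 and 1655. It was below the floor on the wild-type sham array only, a difference of at least 5.70 in wild-type banding (at least 51.9-fold) and at least 4.78 between the sham arrays. Sdhb, the iron-sulfur subunit, had 4827, 14702, 12348 and 11631 (1.61 and 1.36). Sdhd, the other anchor, had 3070.2, 5129, 5442 and 5008 (0.74 and 0.83), and Sdha, the flavoprotein, had 11279, 7210.1, 9020 and 7091 (-0.65 and -0.32). Another probe set of Sdha had 7129.9, 9273, 10034 and 7407 and gave 0.38 and 0.49, so the direction of Sdha is not settled. The other probe set of Sdhd had 894.5, 455.6, 589.5 and 499.4 and gave -0.97 and -0.60. The direction of Sdhd is thus not settled either. In IL-18 null banding the brightest probe sets of all 4 subunits lay between -0.35 and -0.09. Sdhc was also 1 of the 3 members past 2-fold between the banded arrays, at -1.01.

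Complex III passes electrons from coenzyme Q to cytochrome c. Uqcrc1, a core protein on the matrix side, had 479, 8262, 6463 and 4234. Its differences were 4.11 in wild-type banding (17.3-fold), -0.61 in IL-18 null banding, 3.75 between the sham arrays and -0.96 between the banded arrays, so the 3 arrays other than wild-type sham also spread over nearly 2-fold. Its partner Uqcrc2 had 25423, 23950.4, 18603 and 25436 (-0.09 and 0.45 in the banding comparisons). Cyc1, which is cytochrome c1, had 4798, 13897, 10892 and 9589 (1.53 and -0.18), and Uqcrfs1, the Rieske iron-sulfur protein, had 6870.2, 10913, 10964 and 10441 (0.67 and -0.07). Both were lowest on the wild-type sham array. Uqcrb, which helps to form the coenzyme Q site, was highest there, at 20951, 14065, 18305 and 14744 (-0.57 and -0.31). Cycs, somatic cytochrome c, had 10764, 14418, 14616 and 14711 (0.42 and 0.01), while its other probe sets gave -0.21 and -0.51 in the wild type.

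Several subunits of complex IV, cytochrome c oxidase, come in heart or muscle forms and in forms found in most tissues. Cox4i1, the common form of subunit 4, had 7975, 18973, 15467 and 16341 (1.25 in wild-type banding and 0.08 in the null). Among the small subunits the muscle form Cox8b had 5650, 13203, 9103 and 9885 (1.22 and 0.12) and the common form Cox8a had 287, 1708, 1372 and 1367 (2.57 and -0.01). Both forms of subunit 8 were thus lowest on the wild-type sham array. The muscle form Cox6a2 had 6699, 8192, 7372 and 7493 (0.29 and 0.02), while the common form Cox6a1 had 4398, 3282, 2579 and 3979. Cox6a1 differed by -0.42 in wild-type banding and 0.63 in IL-18 null banding, with the IL-18 null sham array lowest. Its other probe set had 1158, 3197, 1908 and 3014, with the wild-type sham array lowest, and gave 1.47 and 0.66. The muscle form Cox7a1 (7879, 9427, 9595 and 8219) and the common form Cox7a2 (15598, 13908, 14188 and 14310.5) differed by 0.26 and -0.17 in the wild type and by -0.22 and 0.01 in the null. Cox7a2l, a related protein that joins complexes III and IV into supercomplexes, had 392, 2626, 2387 and 2533 (2.74 and 0.09). Cox6b1 had 24420.0, 24230.4, 23462 and 26069, with differences between -0.06 and 0.15 in the 4 comparisons. Its other probe set had 2593, 11294.5, 10133 and 8757, and gave 2.12 in wild-type banding and 1.97 between the sham arrays.

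The head of the ATP synthase turns ADP into ATP. Atp5b, the catalytic beta subunit, had 4335, 16531, 15069 and 12678, and Atp5a1, the alpha subunit beside it, had 14350.3, 13442, 13563 and 12415. The differences of Atp5b were 1.93 in wild-type banding, -0.25 in IL-18 null banding, 1.80 between the sham arrays and -0.38 between the banded arrays. Those of Atp5a1 lay between -0.13 and -0.08 on this probe set. Another probe set of Atp5a1 had 4341, 15395.5, 14374 and 12163. It gave 1.83 in wild-type banding and 1.73 between the sham arrays, so the contrast with Atp5b depends on the probe set. On their brightest probe sets the remaining F1 genes, Atp5c1, Atp5d and Atp5e, lay between -0.19 and 0.47 in wild-type banding. Another probe set of Atp5d gave at least 6.33.

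The rotor of Fo is a ring of subunit c, and 3 genes, Atp5g1, Atp5g2 and Atp5g3, encode the same mature protein behind different import sequences. They gave 3 different patterns. Atp5g2 had 69.2, 4729, 2703 and 1243, just above the floor on the wild-type sham array and highest on the wild-type banded. Its differences were 6.09 in wild-type banding (68.3-fold), -1.12 in IL-18 null banding, 5.29 between the sham arrays and -1.93 between the banded arrays. Atp5g1 had 2874, 14241, 10588 and 11189, with 2.31, 0.08, 1.88 and -0.35 in the same order. Atp5g3 had 13417, 13367, 14782 and 12736, with -0.01, -0.21, 0.14 and -0.07. Atp5o, the stalk subunit that holds the head in place, had 5375, 10807, 11254 and 9831 (1.01 in wild-type banding and 1.07 between the sham arrays). The lowest difference of this group in wild-type banding was -0.50 for Atp5md, a small subunit of the membrane part, at 15021, 10612, 13478 and 12888.

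The 3 genes also differ in their promoters. The 100 bases before the start of each are shown on the gene's strand, with those of Cycs and Sdhb for comparison, because these 5 genes share a pathway but not a pattern over the arrays. They come from the RefSeq annotation of assembly GRCm38.p6. Capitals mark letters of an NRF-1 core (GCGCATG) in Atp5g2, Cycs and Sdhb and of an ERR core (AAGGTCA) in Atp5g3, on either strand.
Atp5g1, chr11:96075632-96075731, minus strand: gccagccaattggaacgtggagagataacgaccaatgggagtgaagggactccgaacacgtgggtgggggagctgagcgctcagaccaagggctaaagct
Atp5g2, chr15:102671048-102671147, minus strand: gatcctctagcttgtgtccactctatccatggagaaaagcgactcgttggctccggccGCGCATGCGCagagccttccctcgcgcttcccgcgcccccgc
Atp5g3, chr2:73911327-73911426, minus strand: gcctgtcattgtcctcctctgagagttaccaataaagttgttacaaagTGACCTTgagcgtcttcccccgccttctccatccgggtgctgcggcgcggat
Cycs, chr6:50566570-50566669, minus strand: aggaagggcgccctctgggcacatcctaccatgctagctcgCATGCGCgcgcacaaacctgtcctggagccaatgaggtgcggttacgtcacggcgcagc
Sdhb, chr4:140961171-140961270, plus strand: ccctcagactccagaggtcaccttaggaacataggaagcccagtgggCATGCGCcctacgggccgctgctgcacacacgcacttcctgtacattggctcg

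The sequence before Atp5g1 holds none of the cores searched. The capitals before Atp5g2 run on in a stretch that reads the same on both strands, so NRF-1 matches on both strands overlap there. Promoters from 250 bases before to 50 after the start were found for 74 of the 89 genes. Of these, 15 (20.3%) held the NRF-1 core on either strand, against 4.41% of 27025 genes with a promoter and 8.76% of the 4224 measured ones. The GABP core (CCGGAAG) was in 20 (27%), against 9.93% of all and 22% of measured genes. The ERR core was in 7 (9.46%, against 5.38% and 3.98%) and the YY1 core (AAGATGG) in 10 (13.5%, against 7.28% and 9.64%). Among the 17 members with a promoter that passed 2-fold upward with wild-type banding, 23.5% held the NRF-1 core, compared with 20.4% of the other 54. The shares for GABP were 23.5% and 29.6%, for YY1 5.88% and 14.8%, and for ERR 0% and 13%. A match of 7 letters is a description of sequence, and binding was not measured here.

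Among the assembly factors, Ndufaf3, needed for early complex I assembly, had 45.8, 532, 411 and 371, a difference of at least 3.06 in wild-type banding and -0.15 in the null. Sdhaf1, which helps to insert the iron-sulfur clusters of complex II, had 71.6, 187, 88.3 and 88.5. The wild-type banded array alone stood above the other 3, and Sdhaf1 differed by 1.38 in wild-type banding and by -1.08 between the banded arrays, with 0.30 between the sham arrays. Sdhaf4, another complex II factor, had 2440.0, 1559, 1925 and 1871 (-0.65 in wild-type banding). The other 5 factors lay between -0.29 and 0.69 in that comparison.

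Leaving out the wild-type sham array, the members were close together. The range over the other 3 arrays had a median of 0.25 on the log2 scale, compared with 0.50 over all 5158 measured genes and 0.25 over the bright ones (0.27 without the members). It was under 0.5 for 71 members (84.5%, against 50.4% of all genes and 86.5% of bright genes, or 84.6% without the members) and at least 1 for Atp5g2 (1.93), Sdhaf1 (1.08) and Sdhc (1.01). The wild-type sham array gave the lowest of the 4 values for 42 members (50%, against 36.0% of all genes) and the highest for 31 (36.9%, against 38.0% of all genes). It lay at least 2-fold below each of the other arrays for 12 members (14.3%), namely Atp5b, Atp5g1, Atp5g2, Cox7a2l, Cox8a, Ndufa7, Ndufaf3, Ndufs4, Ndufs8, Sdhb, Sdhc and Uqcrc1. The share among all genes was 12.2% and among bright genes 8.73%, or 9.26% without the members. It lay at least 2-fold above each of the others for 0 members, and for 2.19% of all genes.

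**Figure D3:**
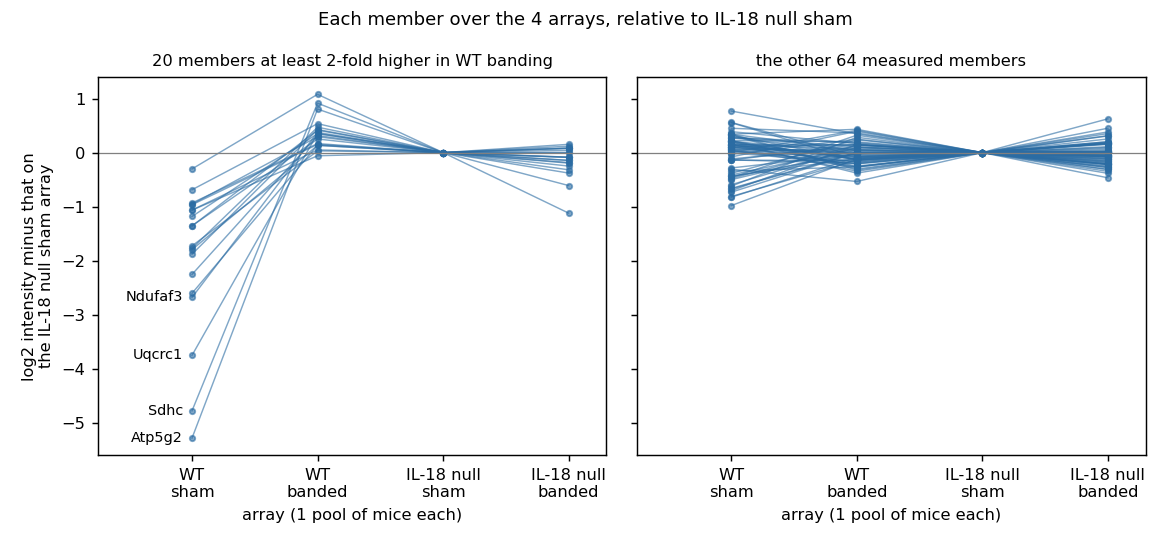
Log2 intensity of each measured member on the 4 arrays minus its value on the IL-18 null sham array, 1 line per gene, for the 20 members past 2-fold upward with wild-type banding (left) and the other 64 (right). The left panel was chosen on the wild-type banding difference, so its points differ between those arrays by that choice; Atp5g2 lies 5.29 below its IL-18 null sham value on the wild-type sham array, and for Sdhaf1 the wild-type banded array stands above the other 3. On the right the wild-type sham points lie on both sides of 0.

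Probe sets of the same gene often differed in wild-type banding. Of the 43 members with several measured probe sets, 19 (44.2%) had probe sets at least 2-fold apart in their wild-type banding difference, compared with 58.0% of 1513 such genes. In IL-18 null banding this held for 1 member (2.33%, against 18.8%). The median span between probe sets was 0.85 in wild-type banding and 0.27 in IL-18 null banding. In wild-type banding all probe sets were at least 2-fold higher for 3 members, Cox8a, Ndufa7 and Sdhc. They were all within 2-fold for 24 and lay on both sides of the 2-fold line for 16.

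For some genes the other probe set gave a different answer from the brightest. For Ndufc2 the brightest probe set had 14937, 9189, 10170.2 and 9423 and another had 172, 2776, 2852 and 2055, which makes differences of -0.70 and 4.02 in wild-type banding. For Atp5d the brightest gave 0.09 and another at least 6.33 (19.0, 5144, 857 and 1615.0). Atp5a1, whose brightest probe set gave -0.09, had another at 1.83. A dim probe set of Atp5a1 had 134, 41.1, 40.3 and 147.5, below the floor on the wild-type banded array, so its -1.07 is a bound: it was lower there by at least that much. For Cox6b1 the values were -0.01 and 2.12, and for Ndufv1 0.29, 0.79 and 3.40. With banding in the IL-18 null the same probe sets of Ndufc2 gave -0.11 and -0.47, and those of Cox6b1 0.15 and -0.21. Ndufs4 ran from -0.79 to 1.76 in wild-type banding, Sdhd from -0.97 to 0.74, Ndufs7 from -0.22 to 1.95 and Ndufv2 from -0.06 to 1.10. Other members on both sides of the 2-fold line had probe sets of 1 sign: Ndufs8 (0.62 to 4.59), Ndufb2 (0.87 to 2.88), Cox7a2l (0.39 to 2.74), Ndufb7 (0.62 to 2.0), Ndufa10 (0.60 to 1.77), Atp5o (0.39 to 1.01) and Cox6c (-1.07 to -0.09), besides Atp5d and Ndufv1 above. In all, 20 of the 43 members had probe sets on both sides of 0 in wild-type banding. They were Atp5a1, Atp5h, Atp5j2, Atp5pb, Cox5b, Cox6a1, Cox6b1, Cycs, Ndufb11, Ndufb5, Ndufb6, Ndufb9, Ndufc1, Ndufc2, Ndufs4, Ndufs7, Ndufv2, Sdha, Sdhd and Uqcrc2. A direction given for any of these in the wild type holds for the named probe set only.

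The kind of probe set moved with the difference. The names of probe sets carry a mark where their probes can match several transcripts, by the array maker's convention. Over the 30 members with both kinds, the median difference in wild-type banding was 0.38 for unmarked and -0.19 for marked probe sets, and the unmarked were higher in 25 (83.3%). Over all 802 such genes the medians were 0.24 and -0.14, with the unmarked higher in 63.6%. In IL-18 null banding the members' medians were -0.09 and -0.01, and the unmarked were higher in 8 of 29. Its part in the members' differences was not tested.

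**Figure D4:**
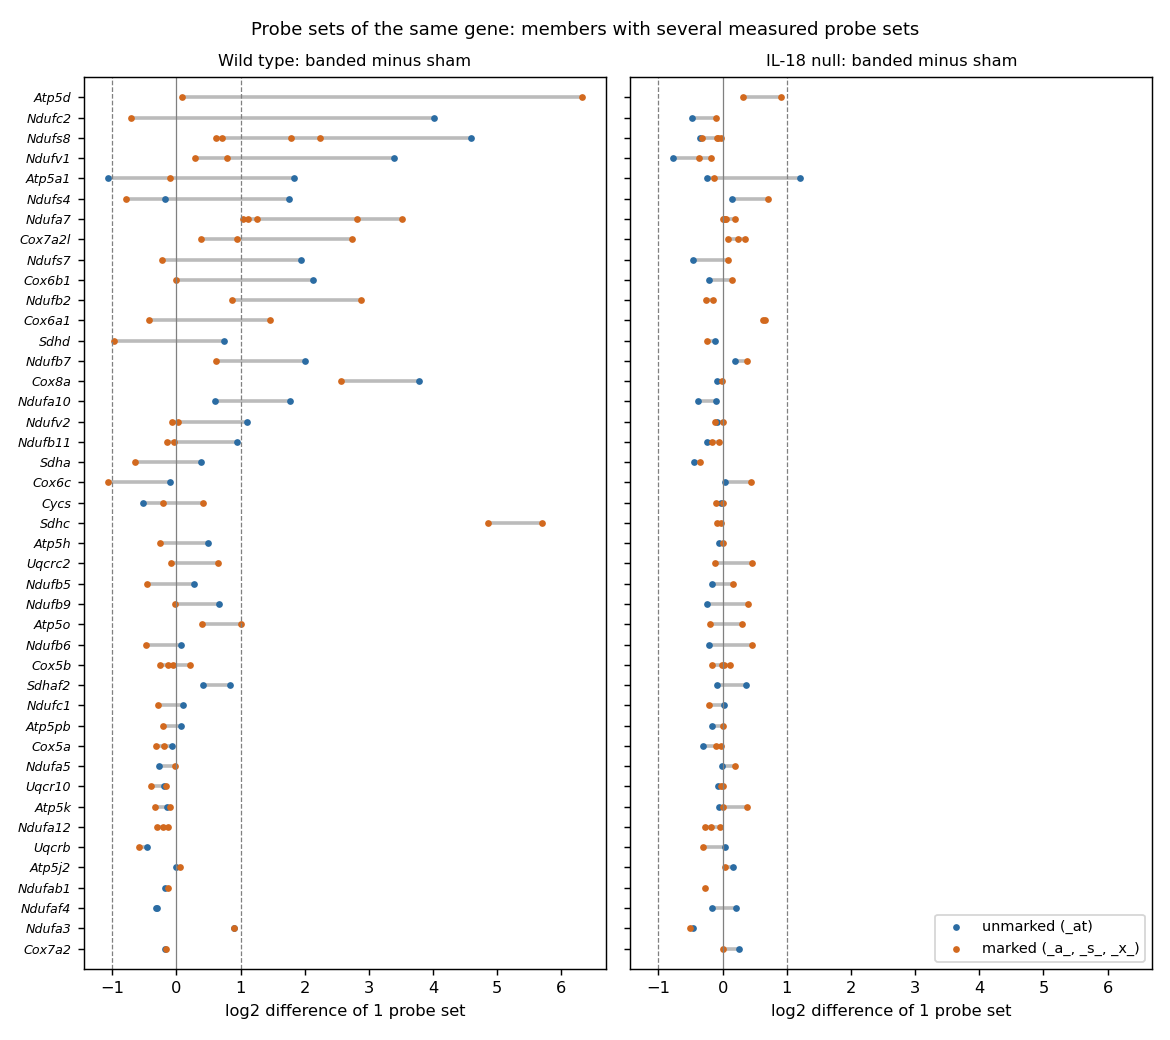
Log2 difference of each measured probe set in wild-type banding (left) and IL-18 null banding (right) for the 43 members with several, joined by a grey bar per gene, with unmarked probe sets in blue and marked ones in orange. The bars are long on the left, up to 6.24 for Atp5d, and shorter on the right, up to 1.45 for Atp5a1.

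Genes that serve the same pathway were taken from lists drawn up by function. Coenzyme Q synthesis, which makes the carrier between complexes I or II and III, had 8 measured genes. In wild-type banding 3 were past 2-fold, Coq10a by at least 4.83 (38.7, 1820, 1136 and 767), Coq8a by 4.21 (269, 4976, 2877 and 2519) and Coq9 by 2.40 (966, 5084, 4886 and 3686). In the null, 0 of the 8 passed in either direction, with -0.57, -0.19 and -0.41 for these genes. The 6 carriers and pores that exchange ADP, ATP and phosphate stayed within 2-fold in all 4 comparisons. Slc25a4, the ADP/ATP carrier of heart and muscle, had 34364, 43811, 43335 and 43060 (0.35 and -0.01). Vdac2 had the largest difference of the list in wild-type banding, at 0.44. The 4 measured ATP synthase assembly factors and inhibitors also had 0 genes past 2-fold in any comparison.

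The assembly lists were mixed, beside shares over all genes of 21.7% higher and 12.8% lower in wild-type banding. Of 18 complex III and IV assembly genes compared in wild-type banding, 5 were at least 2-fold higher and 3 lower, and in IL-18 null banding 0 of 19 passed. The largest differences in the wild type were those of Uqcc1 (2.80), Coa3 (2.62) and Uqcc2 (2.39), whose null values were -0.21, 0.21 and 0.39. Among 4 other complex I assembly genes, Ecsit was higher by at least 2.62 and Foxred1 by 2.44 in the wild type. Foxred1, with 68.1, 369, 166 and 366, also passed 2-fold in the null (1.14). Of 11 genes for inner membrane structure, 4 were higher and 2 lower in the wild type, with Micos13 at 3.79, Phb2 at 2.11 and Yme1l1 at -1.53. Chchd6, a cristae protein, had 258, 121, 81.9 and 230.3, which is -1.10 in the wild type and 1.49 in the null.

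Of the 10 regulators listed, 5 were measured. With banding, 2 of 5 were at least 2-fold lower in the wild type and 2 of 4 compared in the IL-18 null, and 0 were higher. Over all genes, 12.8% were lower and 21.7% higher in the wild type, and 2.53% lower and 6.98% higher in the null. Ppargc1a, which encodes the coactivator PGC-1 alpha, had 1413, 625, 809 and 303. It was lower in the banded array of each genotype, with differences of -1.18 in the wild type and -1.42 in the null. Ppargc1b, for PGC-1 beta, had 794, 1049.9, 1117 and 229.7, with 0.40 in the wild type and -2.28 in the null. Gabpa, the DNA-binding subunit of GABP, had 1248, 428, 790.1 and 456 (-1.54 and -0.79), and Yy1 had 524, 264, 348 and 350.3 (-0.99 and 0.01). Nrf1, Esrra and Esrrg were below the floor on all 4 arrays. Such values give no level for these genes and do not show that the tissue lacks them. The subunit genes themselves, as given above, had a median of 0.16 in wild-type banding and -0.06 in IL-18 null banding. Of 6 measured genes for mitochondrial transcription and replication, 2 were higher in the wild type, Polg by at least 2.19 and Tfb2m by 1.79, and 1 was lower, Ssbp1 at -1.19. None of the 6 passed 2-fold in the null.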

How the data were processed

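Total RNA of mouse left ventricle or cardiac muscle was measured on 4 biotin-labelled Affymetrix-type arrays, 1 pooled array per group, with groups taken from the sample titles. The deposited intensity values are linear. Per the submitters' processing notes the authors used GCRMA, whose version and settings are not given in the sources used here. The linear scale was read from the values, the largest being 43811.1. The number of arrays limits the precision.

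Of 22690 probe sets, 20380 had 1 gene symbol in the platform annotation, 691 had several, 1555 had none and 64 were controls. Only those with 1 symbol were used. Each gene took the probe set with the highest mean log2 value over the 4 arrays. Intensities below 64 were set to 64, then log2 differences were taken from the deposited values without further normalization, and a gene was counted when they reached 1 in size. All 89 member symbols were the same in the RefSeq table of GRCm38.p6.

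The members and lists were chosen with earlier results of these data known. By rule, the text names members past 2-fold in any comparison, each complex's extremes, tissue isoforms, complex II, members whose probe sets disagree and, of 8 pathway lists, genes past 2-fold in IL-18 null banding and the 3 largest in wild-type banding. The marker lists were cardiomyocyte, endothelial, fibroblast, smooth muscle, macrophage, red cell, atrial, skeletal muscle and adipocyte. Alternatives were a lower, a higher and no floor, quantile and cyclic loess normalization (limma 3.58.1 in R 4.3.3), centring on all genes, other probe set choices and a 1.5-fold threshold. Python 3.11.15 with pandas 2.3.3 was used.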

Additional observations from a re-analysis of the deposited data

Results flagged for a closer look

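Atp5g2, 1 of the 3 genes for subunit c of the ATP synthase, differed in opposite directions with banding in the 2 genotypes. Its log2 difference was 6.09 in the wild type (69.2 in the sham array and 4729 in the banded array) and -1.12 in the IL-18 null (2703 and 1243). No other member was past 2-fold in both banding comparisons. The difference between these responses was not tested, since each group is 1 array. The wild-type sham value lies just above the floor of 64. The other probe set of Atp5g2 was below the floor on all 4 arrays (5.3 to 6.6). With the mean of its probe sets the wild-type sham value fell below the floor, so both differences that use it are bounds. They were at least 1.31 in wild-type banding and at least 0.96 between the sham arrays. Atp5g2 was then at -0.55 in IL-18 null banding and -0.90 between the banded arrays. It still passed 2-fold in wild-type banding, and the bound does not settle whether it did between the sham arrays.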

How the results depend on the processing

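No paired analysis was possible because each group has 1 array. A floor of 32, a floor 2-fold above the 64 used, or none left every count of members within 1.5 times its main value. The higher floor dropped Sdhaf1 from wild-type banding and from the banded genotype comparison. Its differences there are bounds set by that floor, higher by at least 0.54 and lower by at least 0.54. Quantile normalization moved the median over all genes in wild-type banding from -0.08 to -0.42 and the members' median to -0.10, and that between the sham arrays to 0.025. It kept 15 of the 20 higher members, losing Atp5o, Ndufa7, Ndufa8, Ndufv2 and Sdhaf1. Cyclic loess kept all 20 and moved the members' medians to 0.28 in wild-type banding, -0.17 in IL-18 null banding and -0.23 between the banded arrays. The medians over all genes moved too, to 0.10, -0.004 and -0.06 in the same order. Centring on all genes gave a members' median of -0.15 between the banded arrays. With the mean of all probe sets the members' median in wild-type banding was 0.26, with 0.12 over all genes. Under that setting 0 members were lower in IL-18 null banding, where Atp5g2 was at -0.55, as given with its other values above. In wild-type banding 23 members were then higher, with 17 of the 20 kept and Atp5o, Ndufs4 and Ndufv2 lost. Leaving out marked probe sets left 59 members in wild-type banding, of which 19 were higher. Only 13 of the 20 were kept, and the other 7 could not be compared. The members' median in wild-type banding moved to 0.50 (-0.02 over all genes) and that between the sham arrays to 0.48 (-0.03 over all genes). Apart from the 1.5-fold threshold, shares of all genes past the threshold were not computed under the alternatives. Whether the members' shares stayed near the background under them is thus not known. At 1.5-fold, 32 members were higher and 4 lower in wild-type banding (29% and 27.3% of all genes), 1 and 2 in IL-18 null banding (16.7% and 7.83%), 28 and 1 between the sham arrays (23.7% and 21.5%) and 7 lower between the banded arrays (13.9%). The measured probe set of lowest mean was an alternative chosen after seeing the data. With it, 2 members were lower in wild-type banding, with a members' median of 0.31 (0.06 over all genes). That choice also gave 1 higher member in IL-18 null banding and 1 higher member between the banded arrays. Between the sham arrays it gave 1 lower member and a members' median of 0.27 (-0.03 over all genes). Ndufs4 changed sign with the mean of probe sets in wild-type banding (-0.054) and between the sham arrays (-0.091). Its probe set of lowest mean was above the floor on the wild-type sham array alone, so its -0.18 in both is a bound and not a measured difference. Ndufv2 changed sign in wild-type banding (-0.061 with the lowest). The cause of these changes was not tested beyond the disagreement of probe sets given above. Signal over background limits Sdhc, Ndufaf3, Atp5g2 and Sdhaf1 on the wild-type sham array.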

Other observations

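Probe sets that match several genes of the family were left out above. The probe set of Ndufa11 and Ndufa11b had intensities of 2968, 6546, 6365 and 7413, in the order used above, a log2 difference of 1.14 in wild-type banding and 0.22 in IL-18 null banding. Of 2 probe sets for the Ndufb4 genes, 1 had 10548, 8829, 8540.3 and 9122.8 (-0.26 in wild-type banding) and the other 1921, 7027, 6513 and 5336 (1.87). The probe set of Ndufs6 and Ndufs6b had 7588, 7925, 8527 and 8527 (0.06 and 0.00).

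Some marker genes outside the members had large values on the same arrays. Ckm, the muscle creatine kinase that passes mitochondrial energy on to the myofibrils, had 92.0, 16531, 7486 and 8713, which is 7.49 in wild-type banding and 0.22 in IL-18 null banding. Acta1, skeletal alpha-actin and a known hypertrophy marker, had 142.5, 10769, 2950.1 and 10430 (6.24 and 1.82). Myh1, Myh2 and Myh4, the fast myosins of skeletal muscle, were below the floor on all 4 arrays. Ucp1, the uncoupling protein of brown fat, had 140 on the wild-type sham array and 7.0 to 7.8 on the others. Of the remaining marker lists, 2 of 5 endothelial genes passed 2-fold upward with wild-type banding and 0 of 4 in IL-18 null banding. The shares over all genes in these comparisons were 21.7% and 6.98%. The smooth muscle list had 1 and 2 of 3 higher with Myh11 and Cnn1 below the floor, the atrial list had 1 and 0 of 3 higher, and the only measured red cell gene was within 2-fold with Hba-a1 below the floor. Of 3 measured adipocyte genes, 1 was higher and 1, Ucp1, was lower in wild-type banding, with Adipoq below the floor.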
